A study of Mus musculus with 10 samples.

Results

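The genes described here encode the DNA replication machinery of the mouse, from the proteins that mark and license origins to the helicase, the polymerases, the sliding clamp and the enzymes that supply nucleotides. They are a list of 38 symbols, and a row of the expression table was taken as a member where its gene name was one of them. In this way 37 of the 38 were found among 42465 gene models, and Tyms, the gene of thymidylate synthase, was the exception. The members were RNA-sequenced in neural tube explants that contained neural crest cells, in 2 groups of 5 libraries. The first group was Ednrb-/-, lacking the endothelin receptor type B, and the second was wild type (WT). Embryos were taken at embryonic day 9.5 and the explants of both groups were cultured for 4 days in 90% DMEM with 10% fetal bovine serum, glutamine, gentamicin and 20 nM EDN3, which is a ligand of the receptor. The stated interest of the study is how melanoblasts, which give rise to pigment cells, proliferate. The labels call the replicates biological but do not say whether a replicate is 1 embryo or a pool, nor which part of Ednrb was removed, so p-values here measure the spread between these samples.

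DNA is copied once per cell cycle. In G1 the origin recognition complex, with Cdc6 and Cdt1, loads the ring of MCM proteins onto origins, a step called licensing. At the start of S phase the ring is joined by Cdc45 and the GINS complex and becomes the active helicase, behind which polymerase epsilon copies the leading strand and polymerases alpha and delta the lagging strand. PCNA, loaded by replication factor C, holds the polymerases on DNA, and FEN1 and DNA ligase I finish and join the Okazaki fragments. Many of these genes are transcribed in late G1 and S phase by E2F factors, so that in a mixed tissue their RNA is commonly read as a mark of dividing cells. In bulk RNA of such explants, fewer cells of a type and less RNA per cell cannot be told apart.

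Ednrb itself, which checks the genotype labels, had 7.15 ± 3.41 FPKM (fragments counted on a gene, scaled to its length and to the size of the library) in Ednrb-/- libraries and 52.3 ± 7.16 FPKM in WT libraries (SD, n = 5 each), with no overlap. The log2 fold change was -2.92 (SE 0.31, exact two-sided permutation p = 0.00794, the lowest value this design can give). Libraries held 13022266 to 19532570 reads in the Ednrb-/- group and 13856545 to 16522842 in the WT group. A gene was tested where it reached 0.5 FPKM in 5 or more of the 10 libraries, with limma on log2(FPKM + 0.5), and was called changed at a Benjamini-Hochberg adjusted p under 0.05 over all 15156 genes tested. The terms rose and fell are kept for such genes. All fold changes are log2 of Ednrb-/- over WT and all levels are FPKM, unless another scale is named.

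The replication genes differed little between the genotypes. Of the 37 members, all 37 were tested, 4 fell in Ednrb-/- explants (Mcm4, Pole, Rfc1 and Mcm3), 1 rose (Prim1) and 32 did not pass. Thus 13.5% of the members were called, where 19.5% of all genes tested were called, 6.53% as higher and 13.0% as lower, so the members' share was not above the background. No member changed by as much as 1 on the log2 scale, the fold changes lying between -0.73 and 0.35, and for 36 of the 37 the 95% interval of the fold change lay wholly between -1 and 1. The interval of 22 members included 0. A p that misses the threshold does not show that a level was equal in the 2 genotypes, and the intervals are given for that reason.

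The members nonetheless leaned to one side. The fitted fold change was below 0 for 29 members and above 0 for 8, and its median was -0.23, where the median over all genes tested was 0.0048 and 7475 of the 15156 genes lay below 0. At an unadjusted p under 0.05 there were 14 members below WT and 1 above it, 15 of 37 against 33.1% of all genes tested. That 33.1% holds both directions, and all genes were not split by direction at this p, so the split of the members has no background here. By role the medians were -0.40 over the 5 genes of origin recognition and licensing, -0.27 over the 11 of the helicase, -0.23 over the 9 of the polymerases and primase, -0.16 over the 2 of nucleotide supply, -0.14 over the 4 of strand binding and joining, and 0.02 over the 6 of the clamp and its loader. These medians are descriptions of lists and were not tested.

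**Figure D1:**
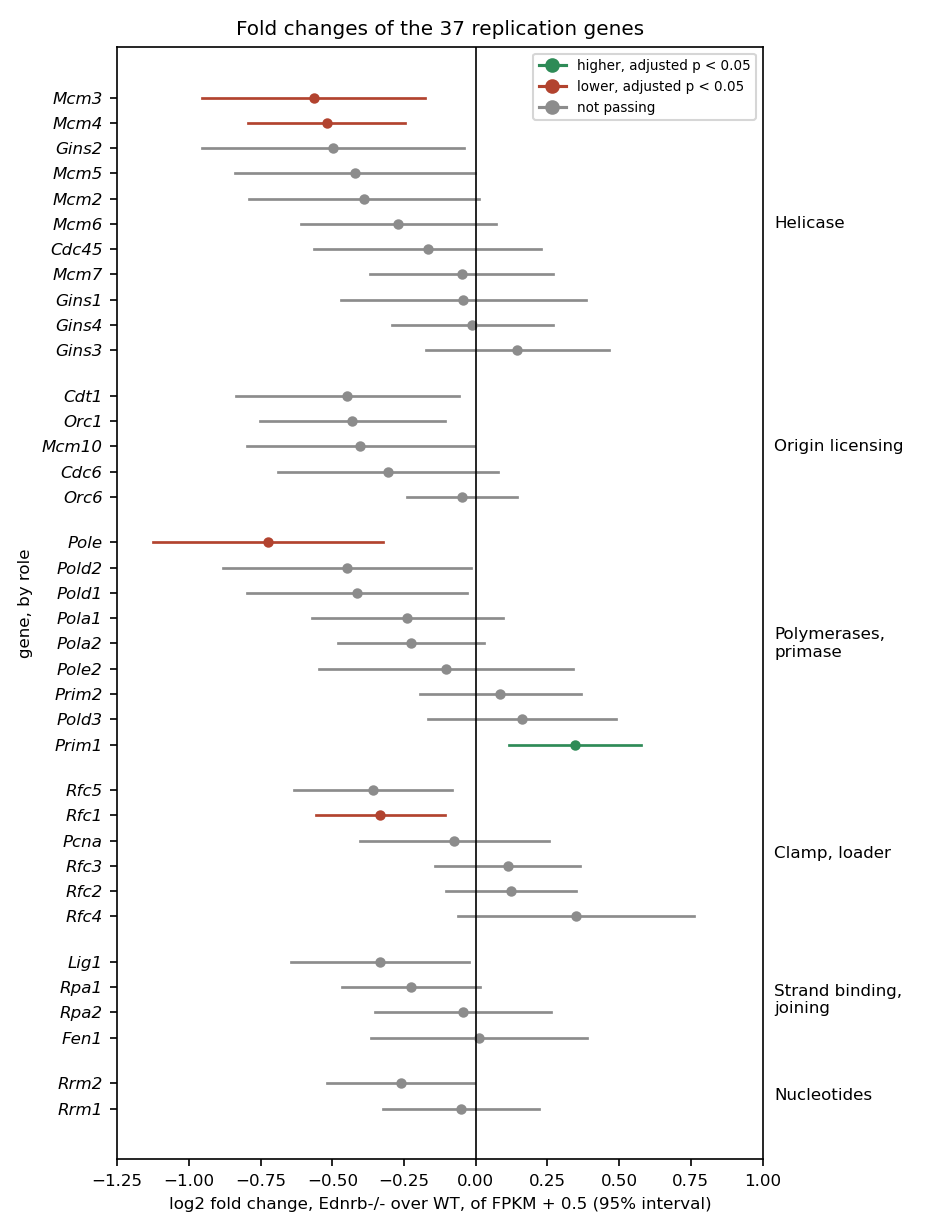
Log2 fold change (Ednrb-/- over WT, of FPKM + 0.5) of each of the 37 replication genes with its 95% interval from limma, grouped by role and sorted within it. The points run from -0.73 for Pole to 0.35 for Prim1 and Rfc4, with 4 genes lower, 1 higher and 32 not passing.

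Part of the lean was carried by single libraries. The mean log2(FPKM + 0.5) over the 37 members was 3.63, 3.36, 3.56, 3.26 and 3.44 in Ednrb-/- replicates 1 to 5 and 3.50, 3.98, 3.43, 3.61 and 3.68 in WT replicates 1 to 5. WT replicate 2 stood highest and Ednrb-/- replicate 4 lowest. Ednrb-/- replicate 2, at 3.36, also lay below every WT library, and WT replicate 5, at 3.68, above every Ednrb-/- library. The remaining libraries of both groups lay among each other. Over all genes tested the same mean was 2.74 to 2.88 in Ednrb-/- and 2.86 to 2.96 in WT libraries. WT replicate 2 had the highest level of the 10 libraries for 25 of the 37 members, or 67.6%, while it was highest for 12.7% of all genes tested. The lowest level of the 10 libraries fell to Ednrb-/- replicate 4 for 12 members, or 32.4%, where it was lowest for 8.5% of all genes tested. It fell to Ednrb-/- replicate 2 for 11 members (29.7%, against 20.4% of all genes) and to WT replicate 3 for 11 (29.7%, against 14.0%).

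Within a genotype the members tended to be high or low together. The median member of Ednrb-/- replicate 1 lay 0.26 above the other Ednrb-/- libraries on the log2 scale and that of replicate 4 lay at -0.26 relative to the other Ednrb-/- libraries. The median member of WT replicate 2 lay 0.43 above the other WT libraries, and those of WT replicates 3 and 1 lay at -0.25 and -0.17. Over all genes tested the corresponding medians for these libraries were between -0.03 and 0.04. The typical member spanned a 1.46-fold range among Ednrb-/- libraries and a 1.66-fold range among WT libraries, or 1.29-fold in WT without replicate 2. Without WT replicate 2 the median fold change of the members was -0.15, and 3 members were called, Mcm4 and Pole as lower and Prim1 as higher.

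**Figure D2:**
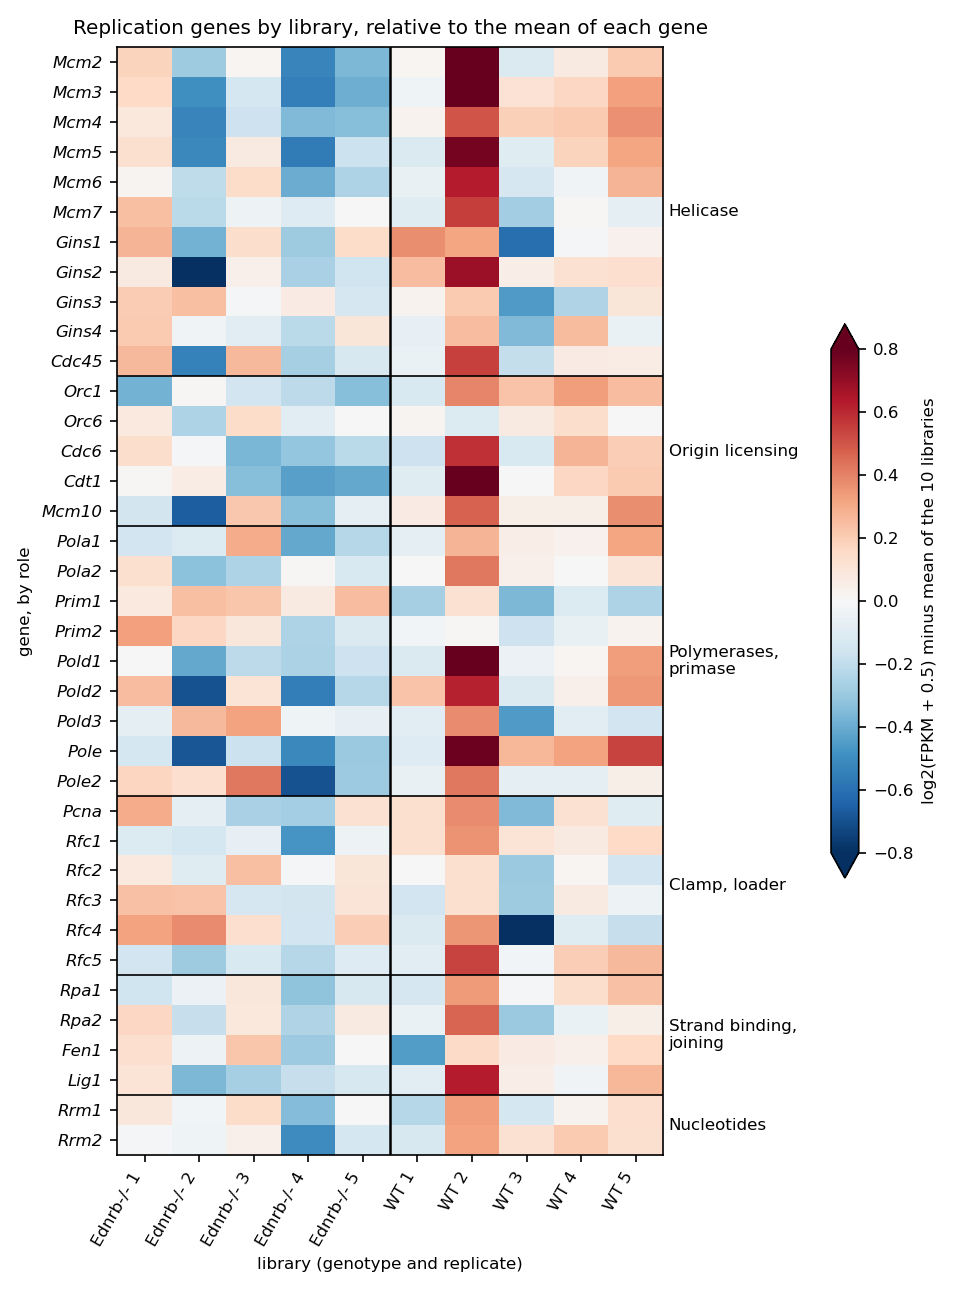
Log2(FPKM + 0.5) of each replication gene in each of the 10 libraries, minus that gene's mean over them, with red above and blue below the mean and the colour scale ending at 0.8 in size. WT replicate 2 is red in most rows (highest of all libraries for 25 of 37 genes), while Ednrb-/- replicate 4 and Ednrb-/- replicate 2 are blue in many.

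The set of called members changed whichever library was left out, and over all genes the 2956 calls became 1945 to 3276 in the same fits. A lost call did not always go with a smaller fold change. Mcm3, for example, was at -0.57 with all libraries and at -0.61 without WT replicate 3, where its call was lost. All 5 calls did not hold together in any fit that left out 1 library. There were 4 members called without Ednrb-/- replicate 1 and 3 without Ednrb-/- replicate 4 or WT replicate 2. Without Ednrb-/- replicate 2 there were also 3, of which 2 were among the calls from all libraries and the other was Orc1. Only 2 were called without Ednrb-/- replicate 3 or 5 or WT replicate 3 or 4, and 1 without WT replicate 5. Without WT replicate 1 there were 5, of which 3 were among the calls from all libraries and the others were Orc1 and Rfc5. Mcm4 passed in each of the 10 such fits.

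The helicase group holds the MCM ring (Mcm2 to Mcm7), Cdc45 and the GINS subunits. Of these 11 genes Mcm3 and Mcm4 fell, none rose and 9 did not pass. Mcm4, a subunit of the catalytic core of the ring, held 26.7, 17.3, 22.4, 19.5 and 19.8 FPKM in Ednrb-/- replicates 1 to 5 and 25.6, 35.8, 28.8, 29.1 and 32.5 FPKM in WT replicates 1 to 5. Only Ednrb-/- replicate 1 reached above a WT library, the lowest one, WT replicate 1. The means were 21.1 ± 3.59 FPKM in Ednrb-/- and 30.4 ± 3.91 FPKM in WT explants (SD, n = 5 each) and the log2 fold change was -0.52 (SE 0.12, limma adjusted p = 0.0144). With a replicate block, a term for replicate number added to the fit, Mcm4 did not pass (limma adjusted p = 0.0696). Its model spans bases 12856354 to 12873643 of chromosome 16 (minus strand), by the file's coordinates, whose identifiers name the C57BL/6NJ assembly.

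Mcm3, another subunit of the ring, held 27.4, 17.3, 22.2, 16.6 and 18.6 FPKM in Ednrb-/- replicates 1 to 5 and 23.9, 44.1, 26.6, 27.5 and 30.9 FPKM in WT replicates 1 to 5. Ednrb-/- replicate 1 lay inside the WT range and the other Ednrb-/- libraries below it. With 20.4 ± 4.46 FPKM in Ednrb-/- and 30.6 ± 7.93 FPKM in WT explants (SD, n = 5 each), the log2 fold change was -0.57 (SE 0.18, limma adjusted p = 0.0448). This call was lost on leaving out any 1 of Ednrb-/- replicates 2 to 5 or WT replicates 2 to 5 (adjusted p 0.0630 to 0.0963), and the fold change then lay between -0.61 and -0.43. It was also lost with no filter (0.0828), no variance trend (0.0620), limma voom (0.0501) and the replicate block (0.115). Its model spans bases 19295246 to 19312590 of chromosome 1 (minus strand).

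The other subunits of the ring did not pass. Mcm5 averaged 20.7 ± 4.62 FPKM in Ednrb-/- and 28.0 ± 7.6 FPKM in WT explants (log2 fold change -0.42), Mcm2 14.8 ± 3.08 against 19.7 ± 5.62 FPKM (-0.39) and Mcm6 22.2 ± 3.44 against 27.2 ± 6.48 FPKM (-0.27). For each of these WT replicate 2 was the highest of all libraries. Mcm7, the most abundant helicase gene, held 54.6, 39.5, 44.7, 42.8 and 46.0 FPKM in Ednrb-/- replicates 1 to 5 and 43.1, 67.8, 37.9, 46.4 and 43.8 FPKM in WT replicates 1 to 5. Without WT replicate 2 every other WT value of Mcm7 lay within or just below the Ednrb-/- range, and the log2 fold change was -0.05 with all libraries (95% interval -0.37 to 0.27) and 0.08 without that one. Thus the genes of 1 hexamer, whose protein subunits assemble in equal number, were present at levels from 17.3 FPKM for Mcm2 to 46.6 FPKM for Mcm7 over all 10 libraries.

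The GINS subunits and Cdc45 bind the ring to make the moving helicase. Gins2, the lowest of the group, held 2.64, 1.07, 2.57, 1.99 and 2.18 FPKM in Ednrb-/- replicates 1 to 5 and 3.05, 4.31, 2.61, 2.76 and 2.78 FPKM in WT replicates 1 to 5. The groups overlapped at a single pair of values, Ednrb-/- replicate 1 above WT replicate 3, and Ednrb-/- replicate 2 was the lowest. The log2 fold change was -0.50 (SE 0.21, limma adjusted p = 0.119). The model of Gins2 overlaps that of Gse1 on the opposite strand over 2758 bases. Gins1 (10.3 ± 2.09 FPKM in Ednrb-/-, 10.8 ± 2.73 FPKM in WT), Gins4 (20.1 ± 2.38 and 20.4 ± 3.56 FPKM), Gins3 (4.73 ± 0.55 and 4.28 ± 0.86 FPKM) and Cdc45 (10.0 ± 2.46 and 11.3 ± 2.45 FPKM) differed by less than the spread within a group, with log2 fold changes between -0.17 and 0.15.

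Promoter letters of the members are given here because E2F factors are the textbook regulators of this gene set. Its members moved together between libraries, and whether E2F factors had a part in that was not tested. RefSeq promoters of the GRCm38.p6 build, from 250 bases before to 50 bases after the start of transcription, were matched for 30 of the 37 members; Mcm4, Gins1, Gins2, Gins4, Prim2, Pole and Rfc2 were not matched. The E2F letters searched were TTTCCCGC, TTTCGCGC, TTTGCCGC and TTTGGCGC on both strands. They occurred in 13 of the 30 member promoters, or 43.3%, against 4.2% of 9702 promoters of other genes tested and 2.3% of 27025 promoters in all. The CCAAT box letters, CCAAT on both strands, occurred in 20 of the 30, or 66.7%, against 38.4% and 37.9%. The E2F letters can overlap each other on opposite strands, and in Mcm7 1 E2F match shares a base with a CCAAT match.

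The 200 bases before the start are printed for 5 genes, 5′ to 3′ on the strand of the gene, with matches to either motif in capitals. Mcm3, which fell, is at chr1:20820313-20820512 on the minus strand, and its E2F letters lie after the start, at bases 20 to 27 and 39 to 46, outside the bases shown. Mcm5 at chr8:75109309-75109508 on the plus strand and Mcm6 at chr1:128359706-128359905 on the minus strand are subunits of the same ring with E2F letters before the start. Prim1, which rose, at chr10:128015015-128015214 on the plus strand, and Rfc1, which fell, at chr5:65335640-65335839 on the minus strand, hold CCAAT letters and no E2F match in the whole window. A match is a description of letters and not a binding site shown here.
Mcm3: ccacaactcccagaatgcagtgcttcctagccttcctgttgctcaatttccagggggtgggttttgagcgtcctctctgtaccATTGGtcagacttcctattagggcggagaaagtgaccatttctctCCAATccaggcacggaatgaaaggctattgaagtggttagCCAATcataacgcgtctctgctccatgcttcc
Mcm5: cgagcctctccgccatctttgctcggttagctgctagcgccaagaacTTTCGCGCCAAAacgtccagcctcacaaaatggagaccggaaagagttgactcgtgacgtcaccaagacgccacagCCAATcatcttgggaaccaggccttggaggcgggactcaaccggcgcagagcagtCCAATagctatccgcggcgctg
Mcm6: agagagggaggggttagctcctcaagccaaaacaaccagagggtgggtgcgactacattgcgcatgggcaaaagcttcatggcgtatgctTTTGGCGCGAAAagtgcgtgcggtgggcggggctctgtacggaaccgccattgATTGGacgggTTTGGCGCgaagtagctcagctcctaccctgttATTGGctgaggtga
Prim1: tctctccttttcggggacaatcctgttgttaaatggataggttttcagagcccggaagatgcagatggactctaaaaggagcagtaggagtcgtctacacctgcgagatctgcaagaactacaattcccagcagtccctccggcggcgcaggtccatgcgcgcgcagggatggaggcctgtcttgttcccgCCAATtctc
Rfc1: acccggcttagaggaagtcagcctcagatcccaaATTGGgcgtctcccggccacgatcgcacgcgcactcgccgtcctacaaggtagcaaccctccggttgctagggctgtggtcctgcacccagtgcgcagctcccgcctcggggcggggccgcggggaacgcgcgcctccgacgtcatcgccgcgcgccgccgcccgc
In the Mcm5 and Mcm6 stretches a pair of overlapping E2F matches on opposite strands forms 1 longer run of capitals, and Mcm6 holds a further match nearer the start. The called genes thus include 1 with E2F letters in its window (Mcm3), 2 without (Prim1 and Rfc1) and 2 not matched (Mcm4 and Pole).

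Origin recognition and licensing held 5 members, none of which passed, and all 5 had fold changes below 0. Orc1, the ATPase subunit of the origin recognition complex, had the lowest p of them and also the lowest level. It held 1.48, 2.10, 1.82, 1.73 and 1.54 FPKM in Ednrb-/- replicates 1 to 5 and 1.87, 2.88, 2.52, 2.76 and 2.56 FPKM in WT replicates 1 to 5. Only Ednrb-/- replicate 2 lay above a WT library, WT replicate 1. The log2 fold change was -0.43 (SE 0.15, limma adjusted p = 0.0624), and it passed without Ednrb-/- replicate 2 (0.0465) and without WT replicate 1 (0.0316).

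Cdt1, which brings the MCM ring to origins and is destroyed in S phase, averaged 9.30 ± 1.66 FPKM in Ednrb-/- and 13.1 ± 3.86 FPKM in WT explants (log2 fold change -0.45, limma adjusted p = 0.102). The WT mean included 19.7 FPKM in replicate 2, where the next WT library held 12.6 FPKM. Mcm10, which helps to activate the helicase, averaged 1.98 ± 0.55 against 2.74 ± 0.47 FPKM (-0.40), and Cdc6, the loading ATPase, 2.38 ± 0.43 against 3.10 ± 0.79 FPKM (-0.31). Orc6, the smallest subunit of the origin complex, was by far the most abundant of the group, with 42.8, 34.0, 44.8, 37.95 and 40.5 FPKM in Ednrb-/- replicates 1 to 5 and 41.1, 37.5, 42.5, 44.7 and 40.4 FPKM in WT replicates 1 to 5. Its groups lay over each other, and it was 1 of the members that were not high in WT replicate 2. The log2 fold change of Orc6 was -0.05 with a 95% interval from -0.24 to 0.15, the narrowest of all members.

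The polymerases and the primase held both the largest fall and the only rise. Pole, the catalytic subunit of polymerase epsilon, held 2.48, 1.54, 2.41, 1.80 and 2.17 FPKM in Ednrb-/- replicates 1 to 5 and 2.56, 5.14, 3.45, 3.61 and 4.28 FPKM in WT replicates 1 to 5. All Ednrb-/- libraries lay below all WT libraries, although Ednrb-/- replicate 1 and WT replicate 1 were close. The means were 2.08 ± 0.40 FPKM in Ednrb-/- and 3.81 ± 0.97 FPKM in WT explants (SD, n = 5 each) and the log2 fold change was -0.73 (SE 0.18, limma adjusted p = 0.0178). Pole did not pass without WT replicate 5 (0.0519), with quantile normalization (0.0635) or with the replicate block (0.0729). Its model spans bases 117181482 to 117234141 of chromosome 5 (plus strand) and its values rest on 224 to 888 reads per library.

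Pole2, the second subunit of the same polymerase, averaged 5.49 ± 1.70 FPKM in Ednrb-/- and 5.77 ± 1.00 FPKM in WT explants. Its log2 fold change was -0.10 with a 95% interval from -0.55 to 0.34, which includes part of the interval of Pole, from -1.13 to -0.33. Whether the 2 subunits differ in response was not tested.

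Prim1, the catalytic subunit of the primase that starts each new strand with a short RNA, was higher in Ednrb-/- explants. It held 9.65, 10.9, 10.7, 9.63 and 10.9 FPKM in Ednrb-/- replicates 1 to 5 and 7.50, 9.96, 7.0, 8.41 and 7.6 FPKM in WT replicates 1 to 5. Only WT replicate 2 reached the Ednrb-/- range. With 10.4 ± 0.67 FPKM in Ednrb-/- and 8.09 ± 1.16 FPKM in WT explants (SD, n = 5 each), the log2 fold change was 0.35 (SE 0.10, limma adjusted p = 0.0386). The call was lost on leaving out any 1 of Ednrb-/- replicates 2, 3 or 5 or WT replicates 1, 3, 4 or 5 (adjusted p 0.0698 to 0.0967), with the fold change then between 0.30 and 0.36. It was also lost with no filter (0.0519), rescaling to TPM (0.0556) and the replicate block (0.0952). Its model spans bases 136155105 to 136177237 of chromosome 10 (plus strand). Prim2, the other primase subunit, averaged 4.17 ± 0.73 FPKM in Ednrb-/- and 3.86 ± 0.23 FPKM in WT explants (0.09), and did not pass.

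Pola1 and Pola2, the catalytic and second subunits of polymerase alpha, which works with the primase, averaged 2.88 ± 0.64 against 3.46 ± 0.46 FPKM and 11.2 ± 1.51 against 13.2 ± 1.80 FPKM in Ednrb-/- against WT explants (log2 fold changes -0.24 and -0.23). Of polymerase delta, the catalytic Pold1 averaged 7.03 ± 0.77 against 9.81 ± 3.14 FPKM (-0.41), and Pold3 11.97 ± 1.70 against 10.8 ± 2.44 FPKM (0.16). Neither polymerase had a subunit that passed. Pold2, the most abundant of the group, held 17.6, 8.91, 16.0, 9.92 and 12.6 FPKM in Ednrb-/- replicates 1 to 5 and 17.4, 22.9, 13.6, 15.2 and 19.0 FPKM in WT replicates 1 to 5. Ednrb-/- replicates 1 and 3 lay within the WT range and the other Ednrb-/- libraries below it (log2 fold change -0.45, SE 0.20, limma adjusted p = 0.138). In each of these enzymes the catalytic subunit was the less abundant per length, as in polymerase epsilon: 3.17 FPKM for Pola1 beside 12.2 FPKM for Pola2, 8.42 FPKM for Pold1 beside 15.3 FPKM for Pold2, and 2.94 FPKM for Pole beside 5.63 FPKM for Pole2, over all 10 libraries. In the primase the order was the other way, with 9.23 FPKM for the catalytic Prim1 beside 4.01 FPKM for Prim2.

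**Figure D3:**
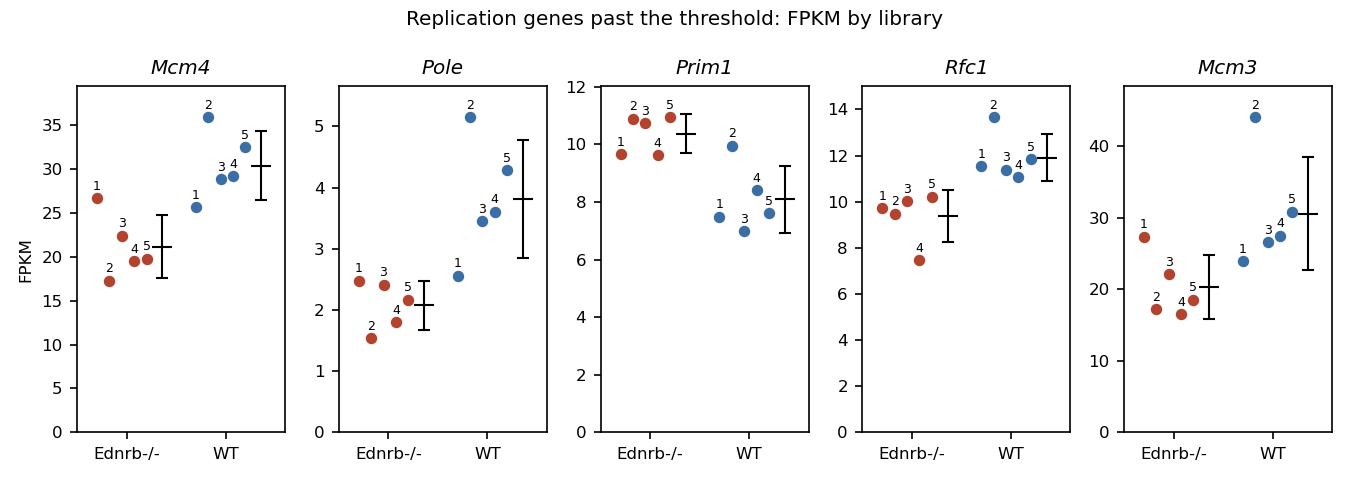
FPKM of the 5 called replication genes in each library (numbered points are replicates, the bar beside each group its mean and SD, n = 5), on axes from 0. Groups are apart for Pole and Rfc1, and WT replicate 2 is the highest WT library in all 5 panels, for Prim1 inside the Ednrb-/- range.

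The sliding clamp and its loader held 6 members, of which Rfc1 fell and 5 did not pass, 3 of the 6 having fold changes above 0. Rfc1, the large subunit that opens the clamp, held 9.72, 9.48, 10.0, 7.46 and 10.2 FPKM in Ednrb-/- replicates 1 to 5 and 11.5, 13.7, 11.4, 11.1 and 11.8 FPKM in WT replicates 1 to 5. All Ednrb-/- libraries lay below all WT libraries, with Ednrb-/- replicate 4 apart at the low end. The means were 9.38 ± 1.11 FPKM in Ednrb-/- and 11.9 ± 1.02 FPKM in WT explants (SD, n = 5 each) and the log2 fold change was -0.33 (SE 0.10, limma adjusted p = 0.0432). Leaving out any 1 of the 10 libraries took the call away (adjusted p 0.0566 to 0.0905), with the fold change between -0.36 and -0.26. So did no filter (0.0577), quantile normalization (0.103), no variance trend (0.0557), limma voom (0.0646) and the replicate block (0.0907). Its model spans bases 67575055 to 67650868 of chromosome 5 (minus strand).

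Rfc5, the lowest of the small loader subunits, was the third member whose groups did not overlap, beside Pole and Rfc1. It held 5.71, 5.15, 5.83, 5.39 and 5.91 FPKM in Ednrb-/- replicates 1 to 5 and 6.0, 9.55, 6.29, 7.42 and 7.75 FPKM in WT replicates 1 to 5, so that the highest Ednrb-/- library was just under the lowest WT library. The log2 fold change was -0.36 (SE 0.13, limma adjusted p = 0.0675), past the threshold without WT replicate 1 (0.0380). In all, Ednrb-/- libraries lay wholly below WT for 3 of 37 members, against 8.44% of all genes tested, and wholly above for none, against 4.78%.

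Pcna, the clamp itself and the most abundant member, held 86.1, 66.2, 58.4, 58.0 and 76.4 FPKM in Ednrb-/- replicates 1 to 5 and 76.7, 91.4, 54.8, 76.3 and 65.5 FPKM in WT replicates 1 to 5. The groups covered the same range. The means were 69.0 ± 12.1 FPKM in Ednrb-/- and 72.9 ± 13.7 FPKM in WT explants (SD, n = 5 each), and the log2 fold change of -0.08 had a 95% interval from -0.40 to 0.25 (limma adjusted p = 0.77). The remaining loader subunits had fold changes above 0: Rfc4 with 23.7 ± 3.31 FPKM in Ednrb-/- and 19.0 ± 5.43 FPKM in WT explants (0.35), Rfc2 with 11.5 ± 1.07 and 10.5 ± 1.24 FPKM (0.12) and Rfc3 with 11.9 ± 1.59 and 11.0 ± 1.3 FPKM (0.11). None of these passed. Rfc4 overlaps Eif4a2, a translation factor gene at 70.2 FPKM on the opposite strand, over 14640 bases, and whether counting used strand is not stated in the labels or notes.

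Strand binding and joining held 4 members, none of which passed. Lig1, the ligase that joins Okazaki fragments, held 21.6, 15.5, 16.6, 17.5 and 18.3 FPKM in Ednrb-/- replicates 1 to 5 and 18.8, 31.3, 20.8, 19.7 and 24.2 FPKM in WT replicates 1 to 5. Ednrb-/- replicate 1 lay within the WT range and the others below it (log2 fold change -0.33, SE 0.14, limma adjusted p = 0.122). Rpa1 and Rpa2, subunits of the complex that coats single-stranded DNA, averaged 13.6 ± 1.47 against 16.0 ± 2.12 FPKM (-0.23) and 13.0 ± 1.65 against 13.6 ± 2.88 FPKM (-0.04) in Ednrb-/- against WT explants.

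Fen1, the nuclease that trims the flaps between fragments, was listed at 1.71, 1.46, 1.85, 1.14 and 1.51 FPKM in Ednrb-/- replicates 1 to 5 and 0.98, 1.73, 1.6, 1.57 and 1.74 FPKM in WT replicates 1 to 5. It was the lowest of all members, resting on 39 to 82 reads per library, and its groups overlapped (log2 fold change 0.01, 95% interval -0.37 to 0.39). The mean level of Pcna over all libraries was 46.4-fold that of Fen1. The model of Fen1 is overlapped on the opposite strand over 3253 bases by Gm10143, at 0.145 FPKM, and by Tmem258 at 24.4 FPKM over 156 bases. The file's description of Gm10143 names the same protein as Fen1. As strand use in counting is not stated, the level of Fen1 and its ratio to Pcna may reflect these overlaps, which was not tested. In all, 8 of the 37 members overlap a model of at least 0.5 FPKM on the opposite strand (Cdc45, Fen1, Gins2, Lig1, Mcm7, Rfc2, Rfc4 and Rfc5), and none of the 5 called members does. Below that level, Gm15792, at 0.366 FPKM, overlaps the called Pole on the opposite strand over 1998 bases.

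Of the nucleotide suppliers, Rrm1 and Rrm2 encode the large and small subunits of ribonucleotide reductase, which makes deoxyribonucleotides and whose small subunit is made in S phase. Rrm2 held 56.99, 56.5, 59.3, 40.5 and 52.4 FPKM in Ednrb-/- replicates 1 to 5 and 52.9, 72.2, 62.8, 66.9 and 63.1 FPKM in WT replicates 1 to 5. WT replicate 1 lay within the Ednrb-/- range and the other WT libraries above it (log2 fold change -0.26, SE 0.12, limma adjusted p = 0.144). Rrm1 held 59.1, 54.7, 61.6, 43.5 and 55.5 FPKM in Ednrb-/- replicates 1 to 5 and 47.4, 70.1, 50.3, 56.7 and 60.9 FPKM in WT replicates 1 to 5, with the groups over each other (-0.05, 95% interval -0.32 to 0.22). With Pcna these were the most abundant members, and Ednrb-/- replicate 4 was the lowest of all libraries for both.

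Most other genes of the same processes did not pass either, and of all genes tested 19.5% were called. The shares called were 0% for further origin genes, 13.3% for further replisome genes, 18.2% for further nucleotide genes and 0% for chromatin assembly. They were 7.7% for the E2F and Rb family and 11.1% for the S phase checkpoint. None of these shares was above that of all genes. Among 16 further genes of origin licensing and firing none passed and the median fold change was -0.01, Donson, a factor of helicase assembly, having the lowest p (9.79 ± 1.3 FPKM in Ednrb-/-, 8.0 ± 0.44 FPKM in WT, 0.27, limma adjusted p = 0.0920). Without WT replicate 1, 1 gene of this list was called lower. Of 15 further genes of the replisome, clamp loading and Okazaki processing 2 rose, none fell and the median was -0.05. Those that rose were Rpa3, the small subunit of the single-strand binding complex (40.4 ± 5.01 FPKM in Ednrb-/-, 29.4 ± 3.47 FPKM in WT, 0.45, adjusted p = 0.0135), and Top1, the topoisomerase that relieves supercoils (35.7 ± 5.02 FPKM in Ednrb-/-, 26.4 ± 2.25 FPKM in WT, 0.42, adjusted p = 0.0150). In both, every Ednrb-/- library lay above every WT library. Rpa1 and Rpa2, of the same complex as Rpa3, had fold changes below 0, and the difference between these subunits was not tested. Rpa3 and Top1 passed without any 1 of the 10 libraries.

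Of 11 further genes of nucleotide supply 2 fell, none rose and the median was -0.23. They were Umps, of pyrimidine synthesis (7.97 ± 1.2 FPKM in Ednrb-/-, 10.9 ± 1.64 FPKM in WT, -0.43, limma adjusted p = 0.0334), and Samhd1, which degrades deoxyribonucleotides (3.31 ± 0.54 FPKM in Ednrb-/-, 4.64 ± 0.61 FPKM in WT, -0.44, adjusted p = 0.0435). Umps failed without 8 of the 10 libraries in turn (adjusted p 0.0543 to 0.0806) and Samhd1 without 7 (0.0575 to 0.114). Neither call held in most of these fits. Of 12 genes of chromatin assembly and cohesion in S phase none passed and the median was -0.05; Asf1b, a histone chaperone, had the lowest p (5.93 ± 1.29 FPKM in Ednrb-/-, 7.88 ± 0.66 FPKM in WT, -0.40, adjusted p = 0.0676, and 0.0384 without Ednrb-/- replicate 3). Without Ednrb-/- replicate 4, 3 genes of this list were called higher.

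Of 13 genes of the E2F and Rb family 1 fell, none rose and the median was -0.03. E2f7, a repressor among the E2F factors that is itself made in S phase, held 2.09, 1.06, 1.64, 2.10 and 1.37 FPKM in Ednrb-/- replicates 1 to 5 and 2.30, 3.57, 4.41, 3.35 and 4.42 FPKM in WT replicates 1 to 5, with no overlap (log2 fold change -0.93, SE 0.20, limma adjusted p = 0.00933). This was a larger fall than that of any of the 37 members. Of 9 genes of the S phase checkpoint Wee1, a kinase that restrains entry into mitosis, fell and 8 did not pass, with a median of 0.01. Wee1 averaged 6.06 ± 2.46 FPKM in Ednrb-/- and 12.4 ± 2.28 FPKM in WT explants (-1.06, SE 0.27, adjusted p = 0.0195, and 0.0517 without WT replicate 3).

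Markers of G2 and M phase resembled the replication genes in size and direction. Of 15 such genes 1 fell and 14 did not pass, so that 6.7% were called, against 19.5% of all genes tested. Fold changes were below 0 for 14 of them and the median was -0.26. Plk1, a mitotic kinase, averaged 20.4 ± 4.23 FPKM in Ednrb-/- and 32.5 ± 8.71 FPKM in WT explants (-0.65, SE 0.19, limma adjusted p = 0.0368; not passing without 7 of the 10 libraries in turn, 0.0539 to 0.0931). The number of these markers called lower was 4 without Ednrb-/- replicate 1 and 3 without WT replicate 1. The mean log2 level of the 15 markers was 3.54 to 4.31 in Ednrb-/- and 3.98 to 4.63 in WT libraries. As for the replication genes, WT replicate 2 was the highest and Ednrb-/- replicate 4 the lowest library.

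Most smooth muscle, mesenchyme, melanocyte and neural crest markers had larger fold changes than any replication gene. Those of neuron markers, 0.24 to 0.72, were smaller in size than that of Pole, the most extreme member. As lists, though, the neuron markers had a median of 0.55 with 90.9% called, and the replication genes a median of -0.23 with 13.5% called. None of the 41 tested neuron, progenitor, muscle and crest markers was listed at 0 in any library. Of 10 smooth muscle and mesenchyme markers all 10 fell, with a median fold change of -3.20, and their mean log2 level was 1.87 to 4.37 in Ednrb-/- and 4.49 to 6.99 in WT libraries (summed level 58.5 to 380.4 FPKM against 479.8 to 3354 FPKM). The 3 with the lowest p were Fn1 (22.7 ± 13.6 FPKM in Ednrb-/-, 238 ± 130 FPKM in WT), Tagln (56.7 ± 37.3 and 525 ± 261 FPKM) and Myl9 (16.6 ± 12.6 and 149 ± 75.8 FPKM). WT replicate 2, the highest library for the replication genes, was the lowest WT library for this list at 4.49.

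Of 10 melanocyte and neural crest markers 9 fell and 1 did not pass, with a median of -2.45 and a summed level of 36.6 to 60.4 FPKM in Ednrb-/- and 123 to 265 FPKM in WT libraries. Its 3 lowest p-values belonged to Ets1 (0.92 ± 0.64 FPKM in Ednrb-/-, 8.97 ± 3.50 FPKM in WT), Gpnmb (2.65 ± 2.79 and 43.5 ± 16.3 FPKM) and Sox10 (4.48 ± 2.33 and 29.3 ± 12.2 FPKM). Neuron markers went the other way: 10 of 11 rose and 1 did not pass, with a median of 0.55 and a summed level of 2039 to 2324 FPKM in Ednrb-/- and 1329.7 to 1613 FPKM in WT libraries. Elavl2 (46.3 ± 2.45 FPKM in Ednrb-/-, 30.3 ± 3.40 FPKM in WT), Stmn2 (158 ± 17.3 and 96.5 ± 16.1 FPKM) and Elavl4 (79.1 ± 9.06 and 50.3 ± 6.95 FPKM) had the lowest p. Neurons are postmitotic, and smooth muscle and crest cells can divide. Whether that bears on the levels of the replication genes was not tested.

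Of 10 neural progenitor markers, cells that divide in the neural tube, 1 rose, 2 fell and 7 did not pass, with a median of 0.25. Vim (211 ± 24.2 FPKM in Ednrb-/-, 427 ± 67.7 FPKM in WT) and Nes (59.4 ± 5.99 and 86.3 ± 15 FPKM) fell, and Fabp7 (427 ± 61.5 and 268 ± 88.8 FPKM) rose. Vim and Nes are intermediate filament genes that mesenchyme also expresses, and which cells their RNA came from was not tested. Fabp7 did not pass without 6 of the 10 libraries in turn (limma adjusted p 0.0580 to 0.0906), and 4 of the 10 were called higher without WT replicate 2. The list's mean log2 level was 4.62 to 4.91 in Ednrb-/- and 4.05 to 5.11 in WT libraries, with WT replicate 2 again the highest. These lists moved with genotype or with single libraries beside the replication genes, and their part in the replication result was not tested.

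**Figure D4:**
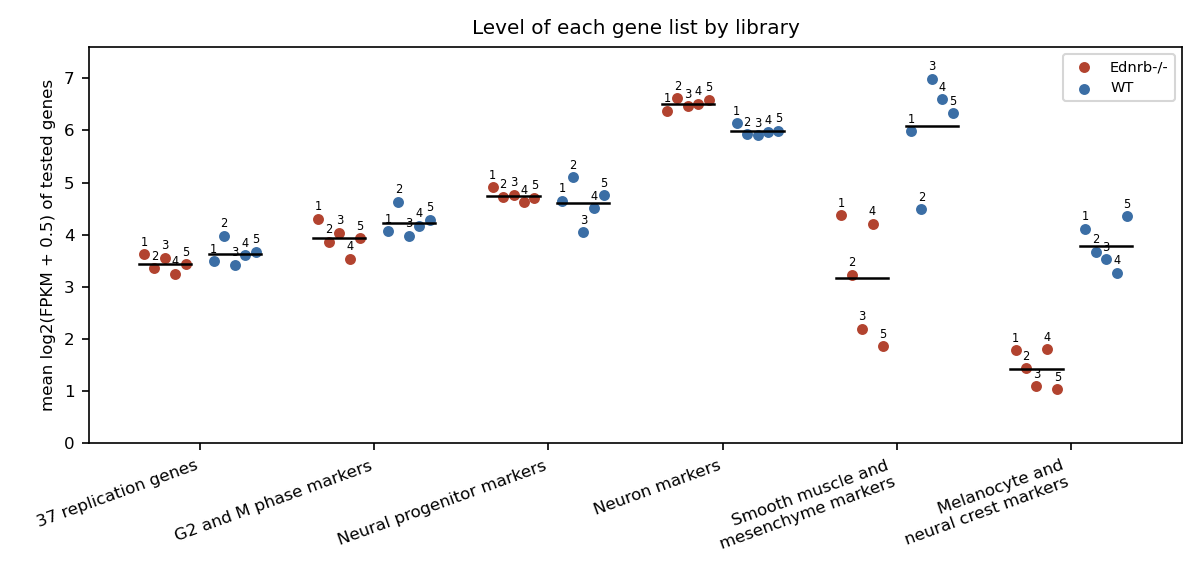
Mean log2(FPKM + 0.5) over the tested genes of 6 lists in each library (numbered points are replicates, the line the group mean). The replication genes overlap between genotypes (3.26 to 3.63 in Ednrb-/-, 3.43 to 3.98 in WT), while smooth muscle and mesenchyme, melanocyte and neural crest, and neuron markers do not.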

How the data were processed

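RNA of 10 libraries, 5 Ednrb-/- and 5 WT, was extracted with TRIzol, per the labels' protocols. Tools listed in the submitters' processing notes are fastp, HISAT2 2.0.5 and featureCounts 1.5.0-p3, with the build mm10; no source used here gives filters or strand settings. The authors deposited 1 table of FPKM with gene length as a further column, and its identifiers are those of the C57BL/6NJ assembly, so coordinates are the file's own, without conversion. Columns were matched to samples by genotype and number in the titles, and 0 further columns of values were present. A symbol is a member only by its gene name.

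FPKM times length gave whole reads within 0.01 for 100% of values. Their sums are the depths given, and a member rested on 39 to 4680 reads per library. The library size by which the FPKM were scaled was not exactly that sum. It was 1.0005 to 1.023 times the sum in Ednrb-/- libraries and 0.953 to 1.032 times in WT libraries, and how it was set is not stated. The 20 pairs of libraries within a genotype differed by more than sampling noise (mean chi-square per gene 14.7 to 91.2). limma 3.58.1 in R 4.3.3 was fitted to log2(FPKM + 0.5) on genotype, with a variance trend, over the 15156 genes at 0.5 FPKM or more in at least 5 libraries; the offset understates the change of low genes. P-values are two-sided and Benjamini-Hochberg adjusted over all genes tested. The fit was tested on simulated data.

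Alternatives were another pseudocount, filter, scaling (TPM rescaling, quantile, median of ratios), no variance trend, array weights, limma voom on the whole reads, a replicate block and leaving out each library. Members past the threshold are given library by library, as are those with the lowest p, highest and lowest mean in each of 6 role groups; of 11 other lists, up to 3 called genes, or the 1 with the lowest p, are named. Of their 139 symbols 134 were found. The members and lists were chosen with earlier results of these data known. Promoters are from RefSeq, GRCm38.p6.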

Additional observations from a re-analysis of the deposited data

Results flagged for a closer look

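Each member was checked in each genotype, and Ednrb and the mean log2 level of the members likewise, for a library whose gap to its nearest neighbour took up more than 0.71 of the group's range, Dixon's limit for 5 samples. Of 78 such groups 8 passed it, where chance flags about 1 in 20 of independent groups. These groups share the same 10 libraries and the members moved together, so the count is a description and not a test. WT replicate 2 was the highest WT library in 6 of the 8. It held 29.5 FPKM of Mcm2 (next highest WT library 19.4), 67.8 FPKM of Mcm7 (46.4), 4.31 FPKM of Gins2 (3.05), 19.75 FPKM of Cdt1 (12.6), 16.3 FPKM of Pola2 (13.0) and 7.51 FPKM of Pole2 (5.68).

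The other 2 were Rfc1, for which Ednrb-/- replicate 4 was the lowest Ednrb-/- library at 7.46 FPKM (next lowest 9.48), and Fen1, for which WT replicate 1 was the lowest WT library at 0.98 FPKM (next lowest 1.57). None of these 8 groups belongs to Mcm3, Mcm4, Pole or Prim1.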

How the results depend on the processing

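Over 21 alternatives and the 37 members, 698 of 777 fold changes kept direction and side of the threshold, and the members' median stayed between -0.29 and -0.15. The 5 members changed became 2 with no filter, 3 with quantile normalization, 8 with array weights (Cdt1, Orc1 and Rfc5 gained), 3 with limma voom, and 1 to 5 on leaving out a library. The 1 higher became 0 with no filter or TPM rescaling and was 0 to 1 on leaving out a library; the 4 lower became 2 with no filter, quantile normalization or voom, 7 with array weights and 1 to 5 on leaving out a library. Same-numbered libraries did not resemble each other in particular (correlations of their deviations -0.16 to 0.15, 0 of 5 best with their own number). Whether they shared a litter or batch is not stated and was not tested. With the replicate block 0 members passed (0 higher, 0 lower, 8 at an unadjusted p under 0.05, lowest limma adjusted p 0.0696). Under it 1877 genes passed in all, 419 of them higher.

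Over all genes the 2956 calls became 1945 to 3276 on leaving out a library and the 990 higher 513 to 1150; higher calls were 659 with no filter, 1684 with array weights and 1603 with quantile normalization, which shifted the median of all genes to 0.10 and gave 1603 higher and 1730 lower calls beside 990 and 1966.

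Fold changes near 0 turned sign, the cause not tested. With quantile normalization these were Gins1 (0.029), Gins4 (0.020), Pole2 (0.013) and Rpa2 (0.0079), with array weights Mcm7 (0.043), Gins1 (0.082) and Rpa2 (0.056), with voom Gins1 (0.025), Gins4 (0.034), Orc6 (0.00055) and Rpa2 (0.0081), and with TPM rescaling Fen1 (-0.0068). On leaving out a library the ranges were Mcm7 -0.12 to 0.083, Gins1 -0.20 to 0.046, Gins4 -0.10 to 0.050, Orc6 -0.090 to 0.0088, Pole2 -0.22 to 0.059, Pcna -0.17 to 0.011, Rpa2 -0.12 to 0.066, Fen1 -0.098 to 0.086 and Rrm1 -0.12 to 0.028.

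Counts of the other lists moved as follows. With no filter, with no variance trend and with the replicate block, 0 markers of G2 and M phase were lower and 0 progenitor markers higher; other nucleotide genes lower were 0 with no filter, quantile normalization or the block, 1 with TPM rescaling or voom and 4 with array weights, and 1 replisome gene was higher under the block. With quantile normalization, 1 origin gene, 1 E2F and Rb gene, 1 checkpoint gene and 2 progenitor markers were higher and 2 G2 and M markers lower. With array weights, 1 nucleotide, 1 chromatin, 1 E2F and Rb and 1 checkpoint gene and 3 progenitor markers were higher, and 1 replisome gene and 3 G2 and M markers lower. With voom, 1 E2F and Rb gene, 1 checkpoint gene and 2 progenitor markers were higher. On leaving out a library, higher calls were 0 to 1 (nucleotide), 0 to 3 (chromatin) and 0 to 4 (progenitor), and lower calls 0 to 1 (origin, chromatin and checkpoint), 0 to 3 (nucleotide) and 0 to 4 (G2 and M). Genes near the filter rest on few reads (Fen1, 39 in 1 library), which limits their precision.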

Other observations

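No row of the table had the gene name Tyms, but 1 unnamed model, MGP_C57BL6NJ_G0029811 spanning bases 29747075 to 29773510 of chromosome 5 (minus strand), is described in the file as thymidylate synthase, the enzyme that makes thymidylate for DNA. It was not counted as a member. It held 8.37, 5.57, 8.05, 4.76 and 6.66 FPKM in Ednrb-/- replicates 1 to 5 and 6.91, 8.47, 5.41, 6.71 and 7.38 FPKM in WT replicates 1 to 5. The groups overlapped, Ednrb-/- replicate 4 being the lowest and WT replicate 2 the highest of all libraries. The means were 6.68 ± 1.56 FPKM in Ednrb-/- and 6.97 ± 1.11 FPKM in WT explants (SD, n = 5 each) and the log2 fold change was -0.07 with a 95% interval from -0.44 to 0.29 (limma adjusted p = 0.798).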
